A study of Rattus with 4 samples.

Results

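The transcripts described here are those of the translation initiation and elongation factors in an RNA immunoprecipitation sequencing (RIP-seq) experiment on NONO in cultured rat cardiac cells. They were chosen by name, as the protein-coding genes of the count table whose symbol begins with Eif or Eef followed by a digit. That gave 62 genes of 13731 listed, 50 with an Eif symbol (initiation) and 12 with an Eef symbol (elongation). The names take in regulators and modifying enzymes of the factors as well as their subunits. In RIP-seq, RNA that comes down with an antibody against one protein is sequenced, and so is input RNA that has not been through the antibody. NONO is a nuclear protein that binds RNA and DNA, and the question the series raises is which RNAs it binds.

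The 2 input libraries are labelled as transfected with an empty vector and as having no antibody. The 2 NONO IP libraries are labelled as transfected with NONO siRNA and as precipitated with an anti-NONO antibody. Precipitation and knockdown therefore cannot be told apart by these labels, and a precipitation with a control antibody is not analysed here. The cells are named as H9C2, a rat heart myoblast line, in the titles and as a rat cardiac fibroblast line in the growth protocol. Polyadenylated RNA was captured before library construction. The labels do not say that replicates came from separate cultures, so each p-value reflects only how these 4 libraries vary, which may be technical.

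Gene counts summed to between 238776 and 279410 per library, so that 3 reads corresponded to between 10.2 and 15.9 CPM (counts scaled to library size, as described under processing). Nono itself had 21 and 9 input reads against 3 and 3 in the NONO IP. Of the marker lists, 10 fibroblast genes held 38144 input reads, mostly on the 3 collagen genes, while the fibroblast marker Tcf21 had 2 and 3. The 9 cardiomyocyte markers found in the table held 110 input reads and 156 NONO IP reads, and the 2 skeletal myoblast markers found there held 21 and 7. The fibroblast genes together took 7.81% and 7.82% of input counts and 7.30% and 7.33% of NONO IP counts. Of the 8 that could be tested by edgeR, 6 were lower in the NONO IP, among them Postn (log2 fold change −3.16), Vim (−1.15) and Col1a2 (−0.75), and Pdgfra was higher (1.04). Of 3 tested cardiomyocyte markers, Myh6 (−1.26) and Myh7 (−2.82) were lower. The other, Tnnt2, had 16 and 39 input reads against 64 and 59 in the NONO IP (0.57, edgeR adjusted p = 0.106). Myh6 and Myh7 passed the filter on low counts through their input reads, and Pdgfra through its NONO IP reads. Over all tested genes, 26.9% were lower and 29.8% higher. The part of these marker differences in the results that follow was not tested.

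Translation starts when initiation factors load a small ribosomal subunit with initiator tRNA, bring it to the capped end of an mRNA and scan it to a start codon. The eIF4 proteins bind the cap and unwind the mRNA, eIF3 joins them to the ribosome, and eIF2 carries the initiator tRNA. Elongation is driven by eEF1A, which delivers aminoacyl-tRNA, by the eEF1B subunits that recharge it with GTP, and by eEF2, which moves the ribosome along. The mRNAs of the elongation factors and of several initiation factors begin with a terminal oligopyrimidine tract (TOP), by which the mTORC1 pathway controls their translation. They share this feature with the mRNAs of ribosomal proteins.

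Summed reads of the elongation factors were depleted from the NONO IP more than those of the initiation factors. Most of the elongation factor reads lay on 2 genes, Eef2 and Eef1a1. The 12 Eef genes together had 624 and 624 input reads against 229 and 250 in the NONO IP. The 50 Eif genes together had 574 and 563 input reads against 528 and 506 in the NONO IP. Per scaled library, the Eef sum was 3.91-fold higher in the inputs than in the NONO IP (exact conditional 95% interval 3.52 to 4.36). The Eif sum was 1.65-fold higher in the inputs (interval 1.52 to 1.80), where the sum of all listed genes was 1.35-fold. These intervals cover counting error only, since reads carry no molecular identifiers. In these bulk samples, fewer cells of a type and less RNA per cell cannot be told apart. All 62 genes took 0.480% and 0.497% of the input counts and 0.271% and 0.286% of the NONO IP counts.

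The balance between the groups can be read within each library, where scaling between libraries plays no part. Eef genes held 52.1% (95% Wilson interval 49.3 to 54.9) and 52.6% (49.7 to 55.4) of the Eif and Eef reads in the inputs. In the NONO IP they held 30.3% (27.1 to 33.6) and 33.1% (29.8 to 36.5). The groups did not overlap, and the difference was −20.7 percentage points, from 52.3 ± 0.341 to 31.7 ± 1.99 (SD, n = 2). No test is given, because the genes were chosen with earlier results known and because 2 libraries against 2 cannot reach an exact two-sided p below 0.333. Without Eef1a1 the difference was −17.5 points. Without Eef1a1 and Eef2 it turned to 2.0 points, with input shares of 8.16% and 10.4% and NONO IP shares of 10.2% and 12.3%. The groups then overlapped. In the inputs Eef2 held 76.3% and 69.7% of the Eef reads and Eef1a1 15.5% and 19.9%. A share of summed reads thus rests on those 2 genes by construction. Leaving them out cannot show whether depletion was limited to them.

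**Figure D1:**
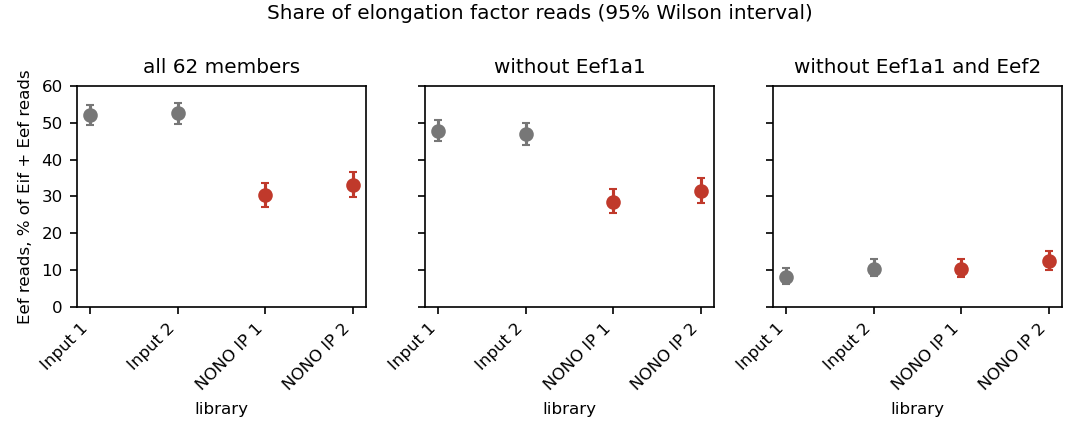
Share of Eef reads among Eif and Eef reads in each library (percent, y axis; library, x axis), with 95% Wilson intervals, for all 62 genes and after leaving out Eef1a1, or Eef1a1 and Eef2. The 2 inputs lie at 52.1% and 52.6% and the 2 NONO IP libraries at 30.3% and 33.1%, whereas without Eef1a1 and Eef2 the shares lie between 8.16% and 12.3% in all 4 libraries.

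Gene by gene, 16 of the 62 passed the filter on low counts (13 Eif and 3 Eef), so that counts over these 16 do not stand for the family. At an adjusted p under 0.05 by edgeR's quasi-likelihood test, 2 of the 3 tested Eef genes were lower and none was higher. Of the 13 tested Eif genes 5 were lower and 1 was higher. Among those lower, Eif3f and Eif4g2 passed the filter through their input reads. Over all 2920 genes tested, 56.7% were called, 26.9% lower and 29.8% higher. The median log2 fold change was −0.78 for the tested Eif genes and −2.13 for the tested Eef genes, against 0.02 for all tested genes. In 13 of the 16 both NONO IP libraries lay below both inputs, and in 1 above; among all tested genes these shares were 37.3% and 40.6%. With an offset for gene length the median of the 13 Eif genes was −0.21 and that of the 3 Eef genes −1.85, against 0.04 for all genes. With library totals as the scale they were −0.32 and −1.67, against 0.48 for all genes.

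**Figure D2:**
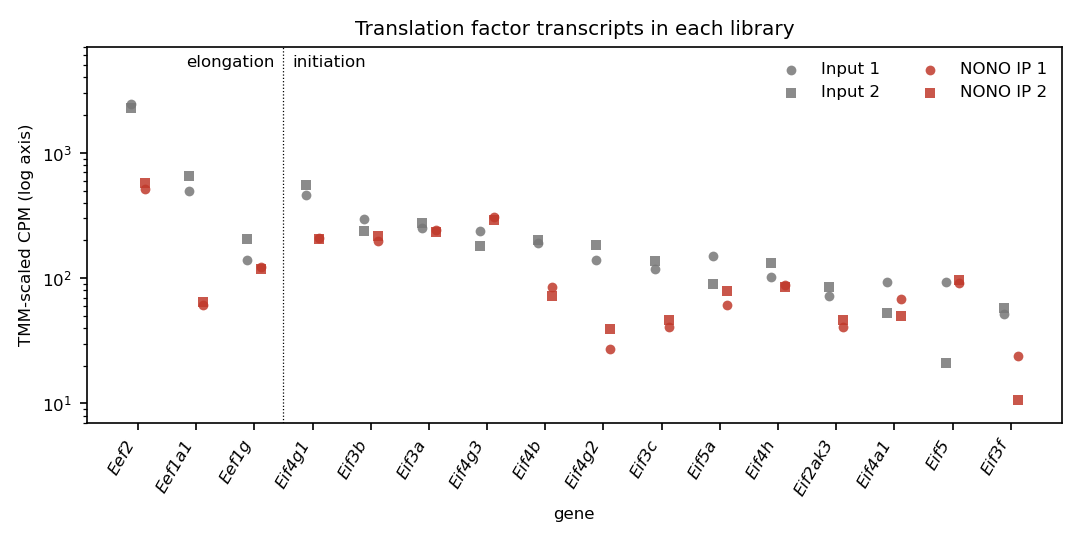
Level of the 16 tested factor genes in each library, as TMM-scaled CPM on a log axis (y) by gene (x), with inputs in grey and NONO IP libraries in red. Eef2 and Eef1a1 show the widest gaps among the elongation genes, and Eif4g2 among the initiation genes; Eif5 has inputs that lie far apart.

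Eef2, on chromosome 7, encodes eEF2, the GTPase that translocates the ribosome. It had 476 and 435 input reads against 151 and 161 in the NONO IP. Both NONO IP libraries lay far below both inputs, at 543 ± 45.2 against 2377 ± 106 CPM (SD, n = 2). Eef2 fell by 2.13 on the log2 scale (SE 0.11, edgeR adjusted p = 1.77e-11).

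Eef1a1, on chromosome 8, encodes the main form of eEF1A. It had 97 and 124 input reads against 18 and 18 in the NONO IP, or 578 ± 111 and 62.6 ± 2.37 CPM. The NONO IP values were close together and about an order of magnitude below the inputs (log2 fold change −3.19, SE 0.23, edgeR adjusted p = 2.96e-09). Genes of eEF1A have near-identical copies that can share reads, and how such reads were counted is not given in the sources used here. A gene described as eEF1A1-like, LOC100360413 on chromosome X, had 5 and 5 input reads against 1 and 0 in the NONO IP. The calls of Eef2 and Eef1a1 held under all 15 alternative settings tried for each, with log2 fold changes from −2.79 to −1.67 and from −3.84 to −2.58.

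The subunits of eEF1B, the exchange factor of eEF1A, did not share one pattern. Eef1g, the gamma subunit, had 27 and 39 input reads against 36 and 33 in the NONO IP (log2 fold change −0.52, SE 0.27, edgeR adjusted p = 0.106). Its NONO IP levels lay below both inputs after scaling. With library totals as the scale the value was −0.06, where the median of all genes was 0.48. With the length offset it was 0.34, where that median was 0.04. Eef1d, the delta subunit, had 8 and 9 input reads against 10 and 24 in the NONO IP. It did not pass the filter, and its NONO IP libraries lay apart from each other. Eef1b2, the beta subunit, had 8 and 6 input reads against 1 and 0 in the NONO IP. That is 21-fold less in the NONO IP per scaled library, with an exact counting interval of 3.2 to 889, and 10.8-fold without NONO IP replicate 2. Eef1b2 was below the filter; in a fit over all 13731 genes, where 4.73% of genes were called lower and 8.59% higher, its edgeR adjusted p was 0.00239.

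Enzymes that modify the elongation factors were barely covered. Eef2k, the kinase that inactivates eEF2, had 3 and 6 input reads against 6 and 5 in the NONO IP. Eef1aknmt, a methyltransferase of eEF1A, had 4 and 3 against 2 and 5. Eef2kmt, a methyltransferase of eEF2, had 0 and 1 against 1 and 3, and Eef1akmt1 had 1 and 1 against 1 and 0. The 7 genes of this kind had 19 reads in all in the inputs against 27 in the NONO IP, a ratio of 1.06 per scaled library (interval 0.555 to 1.97).

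**Figure D3:**
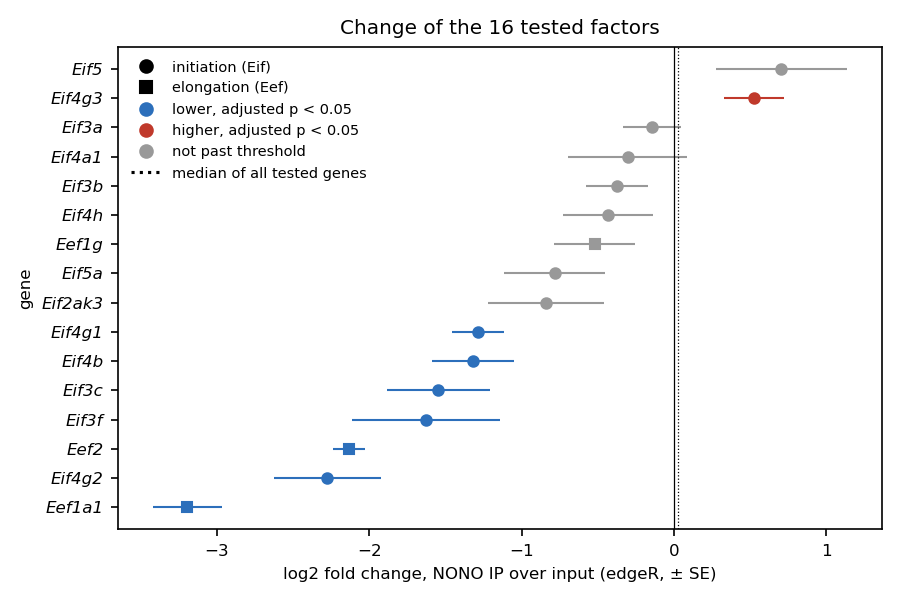
Log2 fold change of NONO IP over input for the 16 tested genes (x axis, edgeR, with SE bars) by gene (y axis), squares for Eef and circles for Eif genes, coloured by call at an adjusted p under 0.05. Values run from −3.19 for Eef1a1 to 0.70 for Eif5, and 7 genes are called lower and 1 higher.

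Among the initiation factors, the eIF4 genes held the most reads, 531 in the inputs and 480 in the NONO IP over 11 genes, and the 3 Eif4g genes moved apart. eIF4G is the scaffold that links the cap-binding protein to the helicase and to eIF3. Eif4g1, on chromosome 11, had 90 and 105 input reads against 62 and 58 in the NONO IP, which is 510 ± 65.1 against 209 ± 1.93 CPM. It fell by 1.29 on the log2 scale (SE 0.17, edgeR adjusted p = 7.54e-06). Eif4g2, on chromosome 1, encodes a relative that lacks the site for the cap-binding protein. It had 27 and 35 input reads against 8 and 11 in the NONO IP, and fell by 2.27 (SE 0.35, edgeR adjusted p = 3.60e-05). Both calls held under every alternative tried.

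Eif4g3, a close relative of Eif4g1 on chromosome 5, was the 1 tested factor gene called higher. It had 46 and 34 input reads against 91 and 82 in the NONO IP, with both NONO IP libraries above both inputs at 301 ± 10.7 against 208 ± 40.3 CPM. It rose by 0.53 on the log2 scale (SE 0.20, edgeR adjusted p = 0.0320). It had the longest gene model of the 16, 2.56 times that of the median tested gene. Its call ended with the DESeq2 Wald test (adjusted p = 0.242), with the length offset (log2 fold change 0.08, adjusted p = 0.755), without Input replicate 2 (0.28, adjusted p = 0.442) and without NONO IP replicate 1 (0.55, adjusted p = 0.0572). On the RPKM scale with a pseudocount of 1 it was −0.11 (adjusted p = 0.754, limma), where the median of all genes was −0.61.

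Within the family the shift can be read without scaling between libraries. Eif4g3 held 28.2% (95% Wilson interval 21.9 to 35.6) and 19.5% (14.3 to 26.1) of the Eif4g reads in the inputs. It held 56.5% (48.8 to 63.9) and 54.3% (46.4 to 62) in the NONO IP. Eif4g1 went from 55.2% and 60.3% to 38.5% and 38.4%, and Eif4g2 from 16.6% and 20.1% to 4.97% and 7.28%. No group overlapped the other for any of the 3 genes. These are shares of reads and not of molecules, since they are not per length, and the family was set out this way after its values were seen.

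**Figure D4:**
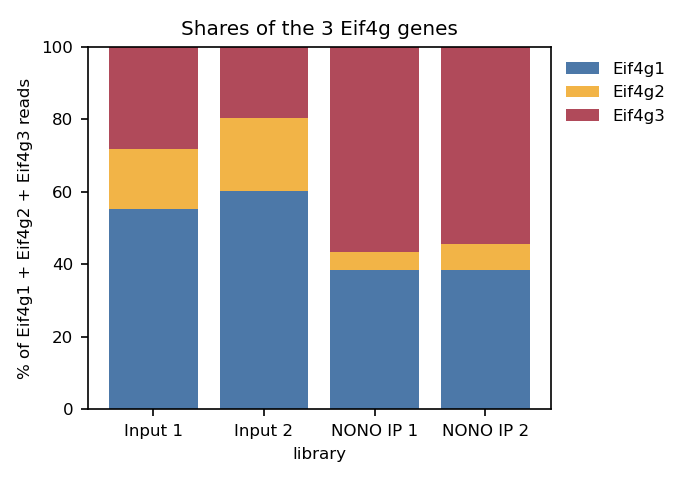
Share of the reads of the 3 Eif4g genes that fell on each gene (stacked bars, percent, y axis) in each library (x axis). Eif4g3 takes 28.2% and 19.5% of input reads, against 56.5% and 54.3% in the NONO IP.

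The helicase and its helpers were lower or did not pass the threshold. Eif4b, on chromosome 7, encodes a cofactor of the eIF4A helicase and is among the reported TOP mRNAs. It had 37 and 38 input reads against 25 and 20 in the NONO IP and fell by 1.32 (SE 0.27, edgeR adjusted p = 0.000478), a call that held under every alternative tried. Eif4h, a second cofactor, had 20 and 25 against 26 and 24 reads (log2 fold change −0.43, SE 0.30, edgeR adjusted p = 0.224). Eif4a1, the main eIF4A gene, had 18 and 10 against 20 and 14 reads, with overlapping levels (−0.30, SE 0.39, edgeR adjusted p = 0.526). Its paralogue Eif4a2 had 7 and 9 against 8 and 3 and was below the filter.

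Eif4a3, on chromosome 10, encodes the helicase of the exon junction complex, which is laid on spliced mRNA, and so is an eIF4A by name more than by role. It had 8 and 7 input reads against 0 and 0 in the NONO IP. Set against 3 reads over the group, Eif4a3 was at least 7.51-fold lower in the NONO IP, and the exact counting interval, which also covers error in the input reads, starts at 5.39-fold. It was below the filter, and its edgeR adjusted p in the fit over all 13731 genes was 0.000186. With either NONO IP library left out, the bound was 3.65 or 3.85. The cap-binding proteins had few reads, 1 and 1 against 4 and 4 for Eif4e and 4 and 9 against 9 and 9 for Eif4e2. Eif4e was 0.375-fold in the inputs relative to the NONO IP, with a counting interval of 0.0388 to 1.88 that includes equality.

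eIF3 is the largest initiation complex, and 2 of its 4 tested subunit genes were lower, while the other 2 did not pass the threshold. Over all tested genes 26.9% were lower. Eif3a, which encodes the scaffold subunit, had 49 and 52 input reads against 72 and 65 in the NONO IP (log2 fold change −0.15, SE 0.19, edgeR adjusted p = 0.532). Eif3b, which encodes another core subunit, had 58 and 45 against 58 and 61 (−0.38, SE 0.20, edgeR adjusted p = 0.123). Neither passed the threshold, and both turned to positive values with library totals as the scale, 0.31 and 0.08, where the median of all genes was 0.48.

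Eif3c, on chromosome 1, fell by 1.55 (SE 0.34, edgeR adjusted p = 0.000960), with 23 and 26 input reads against 12 and 13 in the NONO IP. Eif3f, also on chromosome 1, fell by 1.63 (SE 0.48, edgeR adjusted p = 0.00871), with 10 and 11 against 7 and 3. The Eif3c call held under every alternative tried. That of Eif3f ended in 7 of 14, among them the DESeq2 Wald test (adjusted p = 0.156), the length offset (−0.69, adjusted p = 0.273), the fit without Input replicate 1 (adjusted p = 0.140), without Input replicate 2 (0.219) and without NONO IP replicate 2 (0.187).

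The other 8 Eif3 genes were below the filter. Eif3h had 5 and 6 input reads against 1 and 1 in the NONO IP, 8.26-fold less in the NONO IP (counting interval 1.80 to 76.7). Eif3i had 3 and 7 against 1 and 1, 7.51-fold less (1.60 to 70.5), or 4.45-fold without Input replicate 2. Eif3k had 6 and 1 against 0 and 0, at least 3.50-fold lower against 3 reads over the group, or 1.01-fold without Input replicate 1 and 1.70-fold or 1.80-fold with either NONO IP library left out. Its exact counting interval starts at 2.16-fold. In the fit over all genes the edgeR adjusted p-values of these 3 were 0.0268, 0.0483 and 0.0268. Eif3d had 10 and 8 against 2 and 8, Eif3g 6 and 6 against 4 and 7, Eif3m 6 and 5 against 3 and 1 and Eif3l 3 and 0 against 2 and 3. Eif3j, a loosely bound subunit, had 4 and 2 against 6 and 7.

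The subunits' shares of the Eif3 reads differed between the groups. Eif3a and Eif3b together held 58.5% (95% Wilson interval 51.2 to 65.4) and 57.4% (49.9 to 64.6) of the Eif3 reads in the inputs. They held 77.4% (70.5 to 83.1) and 74.1% (67.1 to 80.1) in the NONO IP, and the groups did not overlap. The 10 other Eif3 genes summed to 76 and 72 input reads against 38 and 44 in the NONO IP. This split of the subunits was made after the values were seen and carries no test.

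The start-codon and scanning factors were mixed. Eif5, the GTPase activator of eIF2, had 18 and 4 input reads against 27 and 27 in the NONO IP. Its inputs lay far apart and the groups overlapped (log2 fold change 0.70, SE 0.43, edgeR adjusted p = 0.174). The value was 2.09 without Input replicate 1 (adjusted p = 0.00216) and −0.04 without Input replicate 2, so that 1 input library set it. Eif1, which guards start-codon choice, had 6 and 6 against 0 and 1 reads, an 18.0-fold ratio with a counting interval of 2.67 to 770 (edgeR adjusted p = 0.00580 in the fit over all genes). Without NONO IP replicate 1 the Eif1 ratio was 8.77. Eif5b, the subunit-joining GTPase, had 8 and 7 against 5 and 4, and Eif1ax had 1 and 6 against 1 and 2.

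eIF2 and its exchange factor eIF2B, the pair on which the stress kinases act, were near the detection limit. None of the 10 genes of this group, Eif2a and Eif2d included, passed the filter, and they summed to 20 and 25 input reads against 13 and 11 in the NONO IP. That is a 2.82-fold ratio with a counting interval of 1.68 to 4.83. The eIF2 subunit genes had 0 and 2 against 1 and 1 reads (Eif2s1, the alpha subunit), 3 and 2 against 2 and 2 (Eif2s2) and 1 and 7 against 1 and 0 (Eif2s3). Of the eIF2B genes, Eif2b2 had 2 and 4 against 5 and 2 and Eif2b5 had 6 and 1 against 1 and 2. Eif2d, an alternative carrier of initiator tRNA, had 3 and 5 against 1 and 2.

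Eif5a, which encodes the hypusine-bearing factor that keeps stalled ribosomes moving, is an initiation factor by name and acts mainly in elongation. It had 29 and 17 input reads against 18 and 22 in the NONO IP (log2 fold change −0.78, SE 0.33, edgeR adjusted p = 0.0524). Both NONO IP levels lay below both inputs, at 69.8 ± 12.5 against 120 ± 42.0 CPM. The value was −0.10 with the length offset. Leaving out Input replicate 1 gave −0.40 (adjusted p = 0.472), and leaving out Input replicate 2 gave −1.16 (adjusted p = 0.00556). Leaving out NONO IP replicate 1 gave −0.55 (adjusted p = 0.272), and leaving out the other NONO IP library gave −0.92 (adjusted p = 0.0549). Eif6, which keeps ribosomal subunits apart, had 3 and 7 against 4 and 1, and Eif5a2 had 3 and 0 against 2 and 1.

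Among the regulators of initiation, only Eif2ak3 passed the filter. It encodes PERK, the eIF2 kinase of endoplasmic reticulum stress. It had 14 and 16 input reads against 12 and 13 in the NONO IP (log2 fold change −0.84, SE 0.38, edgeR adjusted p = 0.0671). Eif4ebp1 and Eif4ebp2 encode proteins that hold the cap-binding protein back when mTORC1 is off. Eif4ebp1 had 8 and 10 against 3 and 6 reads and Eif4ebp2 6 and 7 against 5 and 9. Eif2ak4, the kinase of amino acid shortage, had 3 and 7 against 1 and 6, Eif2ak1 had 4 and 3 against 3 and 1, and Eif4enif1, a shuttling partner of the cap-binding protein, 5 and 2 against 5 and 3. The 20 genes with fewer than 10 reads over the 4 libraries, such as Eif2a, Eif2b1 and Eif4e3, give no direction at this depth. All 46 genes below the filter held 14.8% of the reads of the family, and the largest of them was Eef1d with 51.

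Levels can be compared between genes on the deposited RPKM scale, which is per gene length. In the inputs Eef2 was first at 416 ± 15.9 RPKM and Eef1a1 second at 163 ± 32.2, and their values did not overlap. Eef1g followed at 63.2 ± 17.8 and lay below both Eef1a1 inputs. From there down, the inputs of neighbours overlapped as far as Eif1 at 14.9 ± 0.382. Eif3b stood at 46.9 ± 7.19, Eif4g1 at 44.2 ± 5.93 and Eif5a at 36.3 ± 12.5. In the NONO IP, Eef2 was at 60.2 ± 6.87 RPKM, Eef1g at 27.7 ± 0.212, Eif3b at 22.9 ± 2.39 and Eef1a1 at 11.2 ± 0.771. Eef1g, 1 place below Eef1a1 in the inputs, was thus above it there. RPKM totals differed between the groups, so levels are ordered within a group only.

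The log2 fold change varied weakly with gene length. Across the 16 tested genes the log2 fold change and log2 length had a Pearson r of 0.326 (Spearman rho 0.268), and across all 2920 tested genes 0.0890 (rho 0.263). These are descriptions across genes, which share their libraries. The lengths ran from 0.261 times the median tested gene for Eif3f to 2.56 times for Eif4g3. With the length offset, 4 of the 13 Eif genes were called lower and none higher, and the 2 Eef calls held. Over all 2920 tested genes, 670 were then called lower and 755 higher. The offset nevertheless moved the median of the tested Eif genes from −0.78 to −0.21, against 0.04 for all tested genes.

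**Figure D5:**
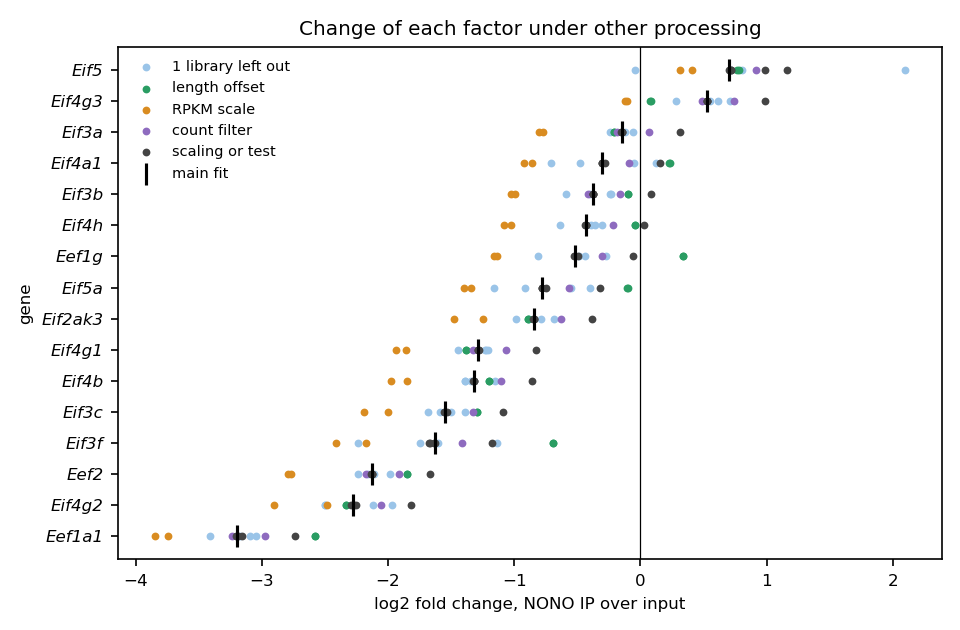
Log2 fold change of the 16 tested genes (x axis) by gene (y axis) under each processing tried, with the main value as a black bar. The values of Eef1a1, Eef2, Eif4g2, Eif3c, Eif4b and Eif4g1 stay below 0 throughout, as do those of Eif3f, Eif2ak3 and Eif5a. Eif4g3 reaches −0.12 on an RPKM scale, where the median of all genes is −0.82, and Eif5 spreads from −0.04 to 2.09.

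Genes reported as TOP mRNAs did not all move. Of 10 listed, 9 were in the table and 6 passed the filter. Of these, 4 were lower (Eef1a1, Eef2, Eif3f and Eif4b), beside 26.9% of all tested genes, and 2 did not pass the threshold (Eef1g and Eif3a). The median of the 6 was −1.47. Summed over the 9, there were 717 and 720 input reads against 321 and 325 in the NONO IP, 3.34-fold per scaled library. Most of this sum was Eef1a1 and Eef2: the other 7 had 144 and 161 input reads against 152 and 146, 1.54-fold (counting interval 1.31 to 1.81). The 82 genes named for cytoplasmic ribosomal proteins, the classic TOP mRNAs, had 1543 and 1551 input reads against 481 and 523 in the NONO IP. That is 4.63-fold per scaled library, beside 3.91-fold for the Eef sum. Only 39 of the 82 passed the filter, and all 39 were called lower by edgeR, beside 26.9% of all tested genes. The count does not cover the rest of the 82.

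Several factor genes hold small nucleolar RNA (snoRNA) genes inside them in RefSeq's gene list for the assembly GRCr8, in which 61 of the 62 symbols were found. There were 8 such hosts with 15 inner snoRNA genes, of which 4 inner genes were counted separately. The 2 inner genes named here rose while their hosts were not called. LOC120095433, inside Eif4a1, had 84 and 83 input reads against 505 and 464 in the NONO IP (log2 fold change 1.95, edgeR adjusted p = 1.87e-10), while Eif4a1 was at −0.30. LOC120095726, inside Eif4a2, had 16 and 16 against 163 and 102 reads (2.45, edgeR adjusted p = 5.38e-07), while Eif4a2 had 7 and 9 against 8 and 3. Of the 8 hosts 6 passed the filter, of which 3 were lower (Eef2, Eif4g1 and Eif4g2, described above) and none was higher. Over all tested genes these shares were 26.9% and 29.8%. How reads on overlapping genes were assigned is not given in the sources used here.

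Of 74 other genes of translation that were listed, 69 were in the table and 23 were tested, of which 8 were lower and 1 was higher, beside 26.9% and 29.8% of all tested genes. With library totals as the scale 5 were lower and 5 higher, where 444 of all 2920 tested genes were lower and 1219 higher. The median log2 fold change of the 23 in the main fit was −0.51. The summed reads of the 69, 643 and 642 against 717 and 703, gave an input ratio of 1.36 per scaled library, beside 1.35 for all listed genes. Among cytoplasmic aminoacyl-tRNA synthetases, which charge tRNAs, 4 of 5 tested were lower, including Nars1 (−1.99, SE 0.38), Iars1 (−2.19, SE 0.49) and Aars1 (−1.03, SE 0.35), and none was higher. Nars1 and Iars1 passed the filter through their input reads. The Iars1 call ended with the DESeq2 Wald test (adjusted p = 0.0616), without either Input library and without NONO IP replicate 1. That of Aars1 ended with the DESeq2 Wald test (adjusted p = 0.169) and with no count filter (edgeR adjusted p = 0.147). It also ended on log2(RPKM + 0.1) (limma adjusted p = 0.0623), with library totals (−0.57) and without NONO IP replicate 1 (−0.58).

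In the integrated stress response list, 2 of 4 tested were lower, where 26.9% of all tested genes were lower and 29.8% higher. They were Gcn1, the partner of the kinase encoded by Eif2ak4 (−1.16, SE 0.21), and Ppp1r15a, a phosphatase subunit for eIF2 (−1.45, SE 0.37). Ppp1r15a passed the filter through its input reads. The Ppp1r15a call ended with the DESeq2 Wald test (adjusted p = 0.0585) and with the length offset (−0.92, adjusted p = 0.0503). Among poly(A) binding proteins and partners, Pabpc4 (−1.52, SE 0.26) and Pabpc1 (−0.69, SE 0.23) were lower. The Pabpc1 call ended in the fits without Input replicate 1, NONO IP replicate 1 or NONO IP replicate 2, with library totals and with the length offset. It also ended with the DESeq2 Wald test (adjusted p = 0.175) and with no count filter (edgeR adjusted p = 0.264). Larp1, a repressor that binds TOP mRNAs, was higher (0.44, SE 0.14, edgeR adjusted p = 0.0135), with 87 and 78 against 182 and 155 reads. Its call ended with the DESeq2 Wald test (adjusted p = 0.172) and with the length offset (edgeR adjusted p = 0.0841). It also ended without Input replicate 1 (0.47) and without Input replicate 2 (0.32). On the RPKM scale with a pseudocount of 1 the Larp1 value was −0.21, where the median of all genes was −0.61. None of the 4 tested termination and rescue genes and none of the 5 tested mTORC1 and MNK genes was called by edgeR in either direction, and no mitochondrial translation factor gene passed the filter.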

How the data were processed

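Sample titles gave the groups and replicate numbers. One deposited table holds raw read counts for each gene. The other holds RPKM, as the authors deposited it, in which counts are divided by gene length and library size per the file headers. HISAT2, HOMER and mRatBN7.2, a rat genome build, are named without roles in the submitters' processing notes. For counting and strand settings, nothing was found in the labels or headers. Genes and lists were chosen with earlier results of these data known.

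NONO IP was tested against input with edgeR 4.0.16 (quasi-likelihood, R 4.3.3), TMM scaling and filterByExpr, on 2920 genes with 91.1% of all counts and at least 23 reads each. P-values were Benjamini-Hochberg adjusted over all tested genes, with a threshold of 0.05. The script was tested on simulated data. SE is the log2 fold change over the root of F. CPM were computed on tested genes with TMM-scaled library sizes. Relative length came from counts over RPKM. Alternatives were DESeq2 1.42.0, limma 3.58.1 and the settings listed under sensitivity; the loess length offset had a span of 0.5. Replicates differed by 1.12 (inputs) and 1.42 (NONO IP) in chi-square per degree of freedom.

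The rule for naming took every tested member, members with at least 10 reads, up to 4 per role group with values, and up to 3 genes per direction from each other list. No sequence table was used, so start-site sequences are not analysed here.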

Additional observations from a re-analysis of the deposited data

How the results depend on the processing

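The number of genes called over the whole table was 871 higher and 786 lower. It was 453 and 423 with the DESeq2 Wald test and 254 and 247 when 2 libraries needed 50 counts. The pair was 1219 and 444 with library totals, 393 and 1425 on log2(RPKM + 1), and 348 and 1143 on log2(RPKM + 0.1), so the split of calls moved with scaling. Library totals put the median of all genes at 0.48, and the RPKM scales at −0.61 and −0.82.

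Lower calls of Eif genes, 5 of 13 tested, became 9 of 50 with no count filter and 1 of 4 with at least 50 counts. They became 18 and 16 of 40 on the RPKM scales with pseudocounts of 1 and 0.1. Over all genes, the lower calls were 650 of 13731, 247 of 600, and 1425 and 1143 of 7576 in these settings. The single higher Eif call became 2 with library totals, 0 with the DESeq2 Wald test, on both RPKM scales (0 and 0) and with the length offset without and with the replicate block (0 and 0), and ran from 0 (without Input replicate 2 or NONO IP replicate 1) to 2 (without Input replicate 1) when 1 library was left out. Lower Eef calls went from 2 of 3 to 4 of 8 on log2(RPKM + 1). Eif4g3 turned to −0.11 and −0.12 on the RPKM scales and Larp1 to −0.21 and −0.22, none of them called there. Of the other translation genes, 1 higher of 23 became 5 with library totals and 0 with the DESeq2 Wald test. It became 0 of 55 on both RPKM scales (0 and 0), 4 of 69 with no count filter, and 2 with the length offset and block together. Over all genes, 1180 of 13731 were higher with no count filter, and 720 of 2920 with the length offset and block. The 8 lower of the other translation genes became 5 with library totals and 3 with the DESeq2 Wald test. They became 1 of 2 with at least 50 counts, and 15 and 13 of 55 on the RPKM scales.

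The difference in Eef share, −20.7 points, was −17.1 in summed RPKM, −17.5 without Eef1a1 and 2.0 without Eef1a1 and Eef2, the last by construction from the members left. Same-numbered libraries deviated together with a correlation of only 0.05 over tested genes, so the replicate number was not taken as a pairing. With the replicate block 870 genes were higher and 806 lower, Eif lower calls were 6, and Eif5a reached an adjusted p of 0.0499. Over the 16 tested members and their alternatives, 12 results lost a call and kept their sign, and 15 gained a call. A further 13 changed sign. Of these, 2 were of a called gene (Eif4g3, which also lost its call there) and 11 of genes that were not called. The sum of TOP mRNAs without Eef1a1 and Eef2 was chosen after seeing the data. The cause of these changes was not tested. Depth limits 46 of the 62 members, which had too few reads for the main test.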

Other observations

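Genes outside the symbol rule carry the words "translation initiation factor IF-2" in the table's description. There were 14 of these, all named only by a LOC number, and their summed reads went the other way from those of the named factors. Together they had 27 and 34 input reads against 215 and 180 in the NONO IP. LOC120097506, on chromosome 16, had 0 and 0 against 33 and 44 reads, LOC120097350 on chromosome 1 had 1 and 0 against 38 and 30, and LOC120093622 on chromosome 7 had 1 and 1 against 32 and 19. Of the 5 that passed the filter, 4 were higher and 1 was lower by edgeR, beside 29.8% and 26.9% of all tested genes. Those 4 passed through their NONO IP reads. The lower one was LOC120101061 on chromosome 2, with 24 and 28 against 15 and 23 reads (log2 fold change −1.03, SE 0.32, edgeR adjusted p = 0.0109). That gene held 24 and 28 of the 27 and 34 input reads. The 14 genes were picked after their values were seen, so their direction carries no test.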
